A study of Mus musculus with 4 samples.

Results

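The comparison described here is the difference in gene expression between Tet1/Tet2 knockdown mouse embryonic stem (ES) cells with and without induction of PRDM14. It was read, probe set by probe set, as the log2 signal on the array titled Tet1/Tet2 KD + PRDM14 minus the log2 signal on the array titled Tet1/Tet2 KD. A probe set is the group of short probes that together report 1 transcript region. The members are the 28898 probe sets, of 45141 on the array, that the platform annotation names with 1 gene, and they stand for 17097 genes. The 2 arrays of the comparison belong to a series of 4, each from a different condition: scramble (a control hairpin, with the source given as wild type cells), scramble + PRDM14, Tet1/Tet2 KD, and Tet1/Tet2 KD + PRDM14. All 4 derive from the J1 ES cell line, grown on no feeder layer in medium with calf serum and LIF, and per the labels' protocols control and knockdown cells alike were iP14 ES cells, taken without or with doxycycline (−/+ Dox). The knockdown was made with hairpins (shTet1/Tet2), and the controls shared the line. Doxycycline itself and PRDM14 cannot be told apart in this design, and its dose and duration are not stated in the labels. With 1 array a side, the comparison has no replicate, and a difference between the arrays cannot be set against a spread between cultures.

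PRDM14 is a PR-domain zinc finger protein of pluripotent cells and early germ cells. It acts mostly as a repressor, with the partner CBFA2T2 and with Polycomb complexes, and in mouse ES cells it is known for holding the naive state, partly by keeping FGF signalling and the de novo DNA methyltransferases low. TET enzymes oxidise 5-methylcytosine, and the oxidised bases can be removed by base excision repair, so that the knockdown lowers 1 route of active DNA demethylation.

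The labels could be checked only in part. The brightest Tet2 probe set gave 8.46 in scramble cells and 7.50 in knockdown cells, both without PRDM14, and the other probe set 6.90 and 6.34. Between the knockdown arrays the brightest Tet2 probe set was higher with PRDM14 by 0.65 on the log2 scale, from 7.50 to 8.15. Prdm14 read 4.35 without and 4.61 with induction, below the expression filter of 5.40 on both arrays; the filter is the median signal over the named probe sets of the 4 arrays. The probe set therefore gave no check of the induction, and the array is called the array labelled with PRDM14. Tet1 was not analysed here.

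The cells carried the markers of ES cells on both arrays. All 7 measured ES cell markers (Pou5f1, Nanog, Sox2, Zfp42, Esrrb, Dppa5a and Utf1) were above the filter, with differences between −0.49 for Esrrb and 0.14 for Sox2. Of the fibroblast markers 1 of 8 reached the filter, Dcn at 5.47 on both arrays, and the summed log2 signal of that list was 34.3 without and 34.5 with PRDM14. In the wider fibroblast and feeder list 6 of 17 measured genes were above the filter and none was called, with Vim, an intermediate filament gene also expressed outside fibroblasts, at 10.2 and 9.48 (−0.72) and Acta2 at −0.23. Of the markers of other lineages 3 of 7 for primitive endoderm, 2 of 6 for trophoblast, 2 of 5 for mesoderm and definitive endoderm and 2 of 6 for neural cells reached it, namely Gata6, Pdgfra and Dab2, Hand1 and Eomes, Mesp1 and Kdr, and Pax6 and Tubb3. Gata4, Sox17, Cdx2, Gata3, Mixl1 and Sox1 were among those below it on both arrays. The summed signals of these lists were 35.4 and 35.5, 30.5 and 30.8, 26.6 and 26.2, and 28.8 and 29.1, without and with PRDM14. In a culture, fewer cells of a type and less RNA per cell cannot be told apart. The array controls lay close together, with the Actb, Gapdh and 18S rRNA probe sets differing by −0.03 to 0.16 between the 2 arrays and none of 104 control probe sets by 2-fold.

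Few genes differed strongly in knockdown cells. Of 10311 genes with at least 1 of the 2 arrays at the filter, PRDM14 induction went with a 2-fold or larger increase in 37 (0.359%) and a decrease of that size in 28 (0.272%), 65 genes (0.63%) in all. The median log2 difference was −0.00095, the quartiles were −0.09 and 0.09, and the first and the ninety-ninth percentile were −0.64 and 0.70. The SD over genes was 0.22, against 0.35 for the same comparison in scramble cells. Probe sets of 1 gene differed among themselves with a pooled SD of 0.15 over 3196 genes, which is a technical yardstick and covers neither cultures nor arrays. At 1.5-fold the counts were 151 higher (1.46%) and 139 lower (1.35%). Counted as probe sets, 51 (0.345%) of 14788 were higher and 35 (0.237%) lower. The genes just inside the 2-fold line were Gstt2, Myo10 and Grhl2, at 1.00 to 1.01, and Nid1, Msc and Tppp3, at −1.01 to −1.02. Those just outside were Ly6e, Zfp280c and Meg3, at 0.98 to 0.99, and Nfatc2ip, Zc3hav1 and Septin8, at −0.93 to −0.96.

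**Figure D1:**
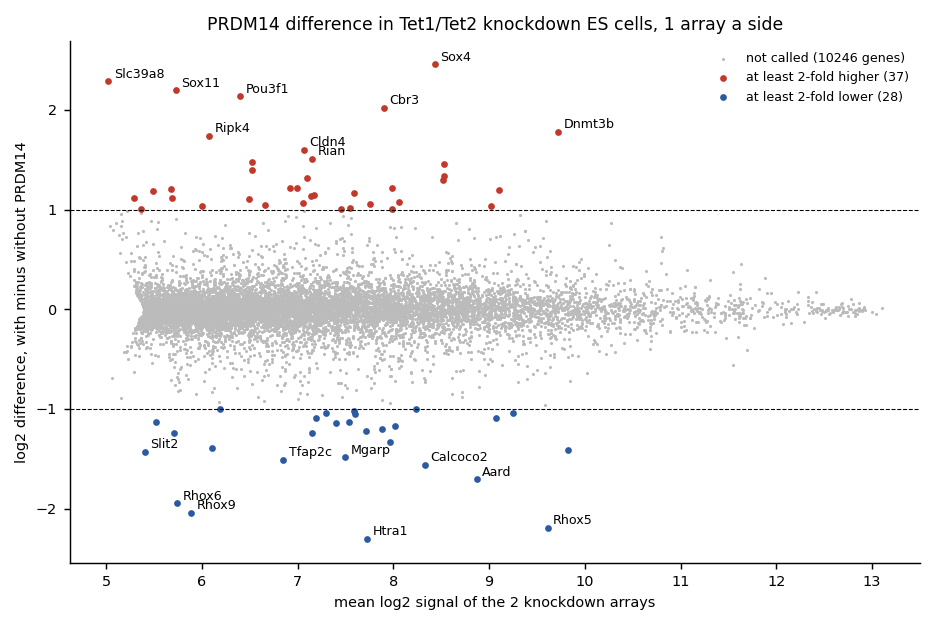
Log2 difference between the knockdown array labelled with PRDM14 and the knockdown array (vertical axis) against the mean log2 signal of both (horizontal axis), for the 10311 genes above the filter, with dashed lines at 2-fold. The 37 higher genes (red) reach 2.46 at Sox4, the 28 lower genes (blue) reach −2.30 at Htra1, and the 10246 other genes (grey) lie between the lines.

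The only fit with a residual degree of freedom joins both backgrounds and tests the average PRDM14 difference, not the difference in knockdown cells. In limma, with the knockdown as an additive term over all 4 arrays, 0 (0.0%) of 10519 genes were higher and 0 (0.0%) lower at an adjusted p of 0.05, 638 had an unadjusted p below 0.05, and the smallest adjusted p was 0.78. The calls below are therefore statements of size. Averaging over all probe sets of a gene took 22 of the 65 called genes under 2-fold. The higher ones were Sox4, Sox11, Rian, Pclaf, Slc44a2, Zfp52, Acsl4, Mapkapk3, Celf4, Efnb2, Lpar4, Hmgxb4 and Grhl2, and the lower ones Nid1, Lmo7, Afap1, Ak4, Ddah1, Kitl, Tgfbi, Urgcp and Slit2. Slc39a8 stayed above 2-fold, at 1.19, but was no longer called, because its averaged signal fell under the filter.

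The called genes are described by what they are known to do, a grouping made after their values were seen. Among the higher genes were transcription factors and chromatin genes. Series of 4 values here are log2 signals of the scramble pair and then the knockdown pair, in each pair first without and then with PRDM14. Sox4, an SRY-related factor of progenitor cells, read 9.03, 9.50, 7.21 and 9.66. The knockdown array was the low one of the 4. The difference in knockdown cells was 2.46, or 5.49-fold, against 0.47 in scramble cells. Its relative Sox11, another member of the SoxC group, read 5.03, 6.84, 4.63 and 6.83. Both arrays labelled with PRDM14 were high, and the difference of 2.20 in knockdown cells stood beside 1.81 in scramble cells. Without PRDM14 Sox11 was under the filter, and its difference was 1.43 with values raised to it. Over all probe sets of a gene the means were 0.74 for Sox4 and 0.61 for Sox11, under 2-fold. The lowest probe sets above the filter gave 0.38 for Sox4 and 0.18 for Sox11. Of the other 7 SOX genes above the filter none passed 2-fold, and they lay between −0.25 and 0.14.

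Pou3f1, a POU factor that marks the epiblast after implantation, read 5.09, 6.24, 5.33 and 7.47, highest with PRDM14 in knockdown cells. Its difference was 2.14, and 0.51 on a second probe set. Otx2, a homeobox factor of the transition out of the naive state, read 7.60, 8.25, 6.44 and 7.75, so that its difference of 1.31 started from the lowest value on the knockdown array. Grhl2, a factor that maintains epithelial gene expression, read 7.28, 7.76, 6.95 and 7.96, with a difference of 1.01. Tcfl5, a basic helix-loop-helix factor (1.34), Smarca1, an ATPase of ISWI remodellers (1.22), the zinc finger gene Zfp52 (1.19) and the HMG-box gene Hmgxb4 (1.04, and 0.15 on its other probe set above the filter) completed this block. Zfp52 rested on the array labelled with PRDM14 alone, at 6.09 against 4.90, and differed by 0.69 when values under the filter were raised to it.

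Dnmt3b, a de novo DNA methyltransferase, read 8.89, 10.21, 8.83 and 10.61. Both arrays without PRDM14 were at about the same level and both arrays with it were higher, by 1.32 in scramble cells and 1.78 in knockdown cells. Its 2 probe sets agreed, at 1.78 and 1.84 in knockdown cells. Of the 11 measured genes of the DNA methylation list Dnmt3b was the 1 called in knockdown cells, beside 0.63% of all genes. In these cells 10 (90.9%) were above 0, beside 49.5%, and the median was 0.12. In scramble cells 7 (63.6%) were above 0, beside 50.4%, and the median was 0.23. On the knockdown arrays Dnmt3l, a catalytically inactive cofactor of the de novo enzymes, read 9.21 without and 9.93 with PRDM14 (0.72). Uhrf1, which guides maintenance methylation, read 9.05 and 9.51 there (0.45). Dnmt3l and Uhrf1 differed by more in scramble cells, by 0.95 and 0.90. The remaining 8 lay within 0.30 of 0 in knockdown cells: Hells at 0.26, Dnmt3a at 0.16, Mbd3 at 0.12, Uhrf2 at 0.06, Dnmt1 at 0.05, Trim28 at 0.02, Mbd1 at 0.00 and Mbd2 at −0.30. The base excision repair and demethylation list had no called member in knockdown cells among 17 above the filter, beside 0.63% of all genes. Its median was 0.01, with Tet2 at 0.65, Gadd45b at −0.50, Nthl1 at −0.42 and Ung at −0.40.

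Promoter sequence was set beside these values because the knockdown targets enzymes that act on methylated CpG. The RefSeq promoter table (GRCm38.p6, 250 bases before to 50 after the transcript start) held 32 of the 37 higher genes, which had a median of 11.8 CpG sites per 300 bases, with quartiles of 9 and 24.2. The 8311 genes above the filter with a promoter in the table had a median of 20, with quartiles of 12.5 and 28. The observed-to-expected CpG ratio had medians of 0.60 and 0.75. Of the 28 lower genes 20 (71.4%) were in the table, with a median of 20 CpG sites, but a summary that leaves out so many members is void. The promoters of a leading gene from each of the groups described here are shown 5′ to 3′ on the strand of the gene, with every CpG in capitals. Dnmt3b lies at chr2:153649199-153649498 (+ strand, 30 CpG sites), Sox4 at chr13:28953650-28953949 (− strand, 12), Cldn4 at chr5:134946885-134947184 (− strand, 9) and Rhox5 at chrX:37754358-37754657 (+ strand, 5).
Dnmt3b: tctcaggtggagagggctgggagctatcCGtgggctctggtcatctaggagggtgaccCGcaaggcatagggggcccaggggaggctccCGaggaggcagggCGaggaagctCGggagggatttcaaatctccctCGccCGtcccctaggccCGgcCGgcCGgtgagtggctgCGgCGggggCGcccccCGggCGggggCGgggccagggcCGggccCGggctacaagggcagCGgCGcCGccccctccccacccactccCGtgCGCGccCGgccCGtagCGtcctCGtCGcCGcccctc
Sox4: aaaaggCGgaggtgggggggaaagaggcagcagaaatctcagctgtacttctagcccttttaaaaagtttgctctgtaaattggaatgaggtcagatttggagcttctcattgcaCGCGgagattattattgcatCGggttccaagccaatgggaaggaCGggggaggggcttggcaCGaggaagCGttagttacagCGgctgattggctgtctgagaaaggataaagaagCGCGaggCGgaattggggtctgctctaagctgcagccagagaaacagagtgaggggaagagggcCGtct
Cldn4: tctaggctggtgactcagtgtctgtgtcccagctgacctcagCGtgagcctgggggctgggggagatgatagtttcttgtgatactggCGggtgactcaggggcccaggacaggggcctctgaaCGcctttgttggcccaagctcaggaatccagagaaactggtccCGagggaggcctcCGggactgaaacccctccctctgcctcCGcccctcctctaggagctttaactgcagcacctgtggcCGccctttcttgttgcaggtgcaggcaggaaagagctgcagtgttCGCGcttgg
Rhox5: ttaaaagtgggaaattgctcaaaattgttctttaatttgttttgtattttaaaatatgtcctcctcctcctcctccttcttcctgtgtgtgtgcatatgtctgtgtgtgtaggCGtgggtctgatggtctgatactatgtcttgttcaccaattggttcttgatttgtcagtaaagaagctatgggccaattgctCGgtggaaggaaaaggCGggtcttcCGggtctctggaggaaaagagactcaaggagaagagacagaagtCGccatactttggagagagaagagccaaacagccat

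The Dnmt3b promoter carried the most CpG sites of the 4 and the Rhox5 promoter the fewest. Such an order of picked genes says nothing of direction. Counts ran from 0 at Rian to 35 at Efnb2 among higher genes, and lower genes included Phf11a with 0 and Slit2 with 30. The motif GGTCTCTAA, described for PRDM14 binding, was searched on both strands. It was found in the promoter of 1 of the 32 higher genes, Hmgxb4, in 0.253% of the 8311 genes above the filter, and in 0.256% of all 32851 promoters in the table. AACCGGTT, a motif of Grainyhead-like factors, was in none of the 32, in 0.289% of the genes above the filter and in 0.146% of all promoters. A match or its absence describes only these letters in this window.

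Several epithelial genes were higher with PRDM14 in knockdown cells. Cldn4 and Cldn7, claudins of the tight junction, read 6.34, 6.81, 6.27 and 7.87 for Cldn4 and 5.93, 5.61, 5.83 and 7.23 for Cldn7. In both genes 3 arrays lay together and the knockdown array labelled with PRDM14 stood above them, with differences of 1.60 and 1.40 against 0.48 and −0.32 in scramble cells. Krt18, a keratin of simple epithelia, read 6.46, 6.40, 6.59 and 7.74, the same pattern, with a difference of 1.15 against −0.07. Its filament partner Krt8 differed by 0.59 and 0.27.

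Of 33 measured genes of the list of claudins and epithelial adhesion genes, 24 (72.7%) were above 0 in knockdown cells, against 48.0% of all measured genes, and in scramble cells 17 (51.5%) against 50.9%. Of the 23 above the filter 4 were called higher (Cldn4, Cldn7, Krt18 and Grhl2), beside 0.359% of all genes, none lower and 19 not called. Of these 23 genes 20 were above 0, and the median was 0.49 beside −0.00095 over all genes. In scramble cells none of 23 was called, 11 were above 0, and the median was −0.04. The array labelled with PRDM14 alone carried 1 of them over the filter, Marveld3. Of the members not called, the adhesion molecule Epcam (0.78), E-cadherin Cdh1 (0.72), Cldn6 (0.61), the splicing regulator Esrp1 (0.58), the tight junction genes Marveld3, Cgn and Ocln (each 0.49), the desmosomal genes Dsp (0.43) and Pkp2 (0.34), and the small GTPase Rab25 (0.35) were among the higher ones. Cldn2 (−0.06), Cldn5 (−0.03) and F11r (−0.20) were below 0. Esrp1 differed by −0.69 in scramble cells, and Epcam by −0.36. The knockdown array labelled with PRDM14 gave the highest of the 4 values for 17 of the 23 genes (73.9%), against 22.4% of all 10311 genes. The list was written with the differences of Cldn4 and Cldn7 already known, and its counts include both genes. Without them its median over the genes above the filter was 0.43. Over all 33 members, the 10 under the filter included, the median was 0.24.

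**Figure D2:**
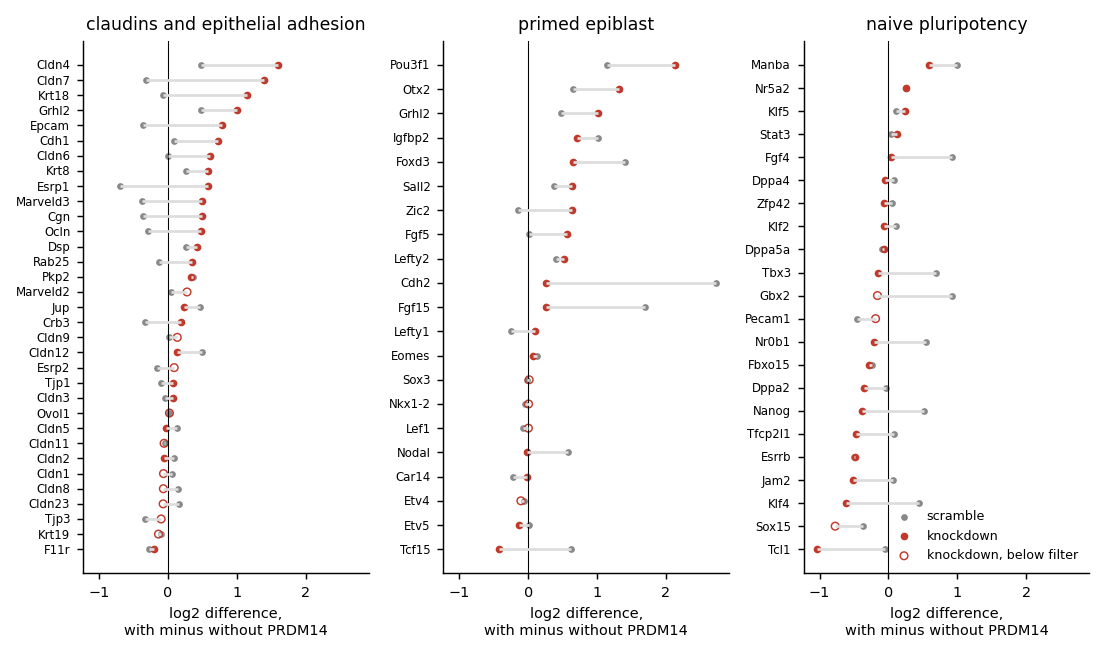
Log2 difference with minus without PRDM14 (horizontal axis) for every measured member of 3 gene lists, in scramble cells (grey) and in knockdown cells (red, open where both knockdown arrays were below the filter). In the epithelial list the red points lie mostly right of 0, to 1.60 at Cldn4, while the grey points lie on both sides of it, and in the naive list 17 of 22 red points lie left of 0.

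More of the higher called genes act in epithelia, and they were picked out after their values were seen. Lower called genes, such as Aqp3 (−1.33), Lmo7 (−1.09) and Nid1 (−1.01), were not sorted by such a role. The grouping therefore gives no count of epithelial genes in each direction. Ripk4, a kinase of keratinocyte differentiation, read 5.49, 5.86, 5.20 and 6.94, a difference of 1.74, with 0.59 on its other probe set. Ap1m2, the epithelial subunit of the AP-1 sorting complex, read 6.77, 6.53, 6.57 and 7.71 (1.14). Tmem30b, a partner subunit of lipid flippases, and Tmem54, a membrane protein, differed by 1.11 and 1.12, the latter from 4.74 to 5.85 and by 0.46 with values raised to the filter. In scramble cells Ap1m2, Tmem30b and Tmem54 differed by −0.25, −0.61 and −0.01. Ap1m2 and Slc44a2, a choline transporter-like gene (1.22), are the nearest protein-coding neighbours of each other on that side in the RefSeq table. Slc44a2 rested on 1 probe set, of a type that can share probes with other transcripts, and its other probe sets were below the filter.

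Transporters, channels and metabolic enzymes were also among the higher genes. Slc39a8, a zinc and manganese importer, read 3.65, 4.20, 3.88 and 6.17. It was above the filter on 1 array of the 4, and its difference of 2.29 was 0.77 with values raised to the filter. Its other probe set, below the filter on all 4 arrays, gave 0.08. None of the other 18 members of the zinc transporter list above the filter passed 2-fold. Kcnk1, a background potassium channel, read 7.70, 6.98, 7.80 and 9.25, and its difference of 1.45 (1.41 on a second probe set) stood against −0.71 in scramble cells. Cbr3, a carbonyl reductase, read 6.32, 8.03, 6.89 and 8.91, high on both arrays labelled with PRDM14, by 1.71 and 2.02. Among 20 genes of the NRF2 antioxidant list, to which Cbr3 belongs, no other was called, and the median was 0.14. Acsl4, a ligase of long-chain fatty acids (1.16), Mapkapk3, a kinase downstream of p38 (1.07), and the glutathione transferase Gstt2 (1.00, and 0.48 with values raised to the filter) were the remaining enzymes.

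Signalling and surface genes were led by Trh, the precursor of thyrotropin-releasing hormone, at 6.93, 9.21, 5.78 and 7.26. Its difference of 1.48 in knockdown cells ended near the level of the scramble array, and the difference in scramble cells was 2.28. Efnb2, the membrane ligand ephrin-B2, read 6.78, 8.66, 7.23 and 8.28, a difference of 1.06, with 0.03 and 0.65 on other probe sets. Lpar4, a receptor of lysophosphatidic acid (1.05), Tek, an angiopoietin receptor (1.04), Cdh9, a cadherin (1.12), Mcf2, a guanine nucleotide exchange factor (1.01), and Myo10, a myosin of filopodia (1.01), were smaller calls. So were Pclaf, a PCNA-binding factor (1.29), the ubiquitin ligase Trim2 (1.19) and the RNA-binding protein gene Celf4 (1.07). Cdh9 was at 0.85 with values raised to the filter.

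Rian, an imprinted noncoding RNA of the Dlk1-Dio3 domain, was higher with PRDM14 in both backgrounds. It read 7.23, 8.64, 6.40 and 7.90, a difference of 1.51, although the lowest of its 3 probe sets above the filter gave 0.08. Meg3, the maternally expressed noncoding RNA of the same domain, read 6.57 and 7.56 on the knockdown arrays (0.98), with 5 probe sets above the filter between −0.0026 and 2.27, and Mirg read 5.15 and 5.52 (0.37), passing the filter on the array labelled with PRDM14 alone and at 0.13 with raised values. The median of these 3 was 0.98, and of 4 measured members, with Dlk1 at 0.08, it was 0.68. The other called noncoding transcript, Snhg14, comes from the imprinted Snrpn and Ube3a region. It read 7.56, 7.02, 6.31 and 7.53, so that PRDM14 in knockdown cells stood at the scramble level and the difference of 1.22 opposed −0.53 in scramble cells. None of the 19 genes above the filter in the list of other imprinted genes was called, beside 0.63% of all genes, and the highest was Grb10 at 0.72.

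**Figure D3:**
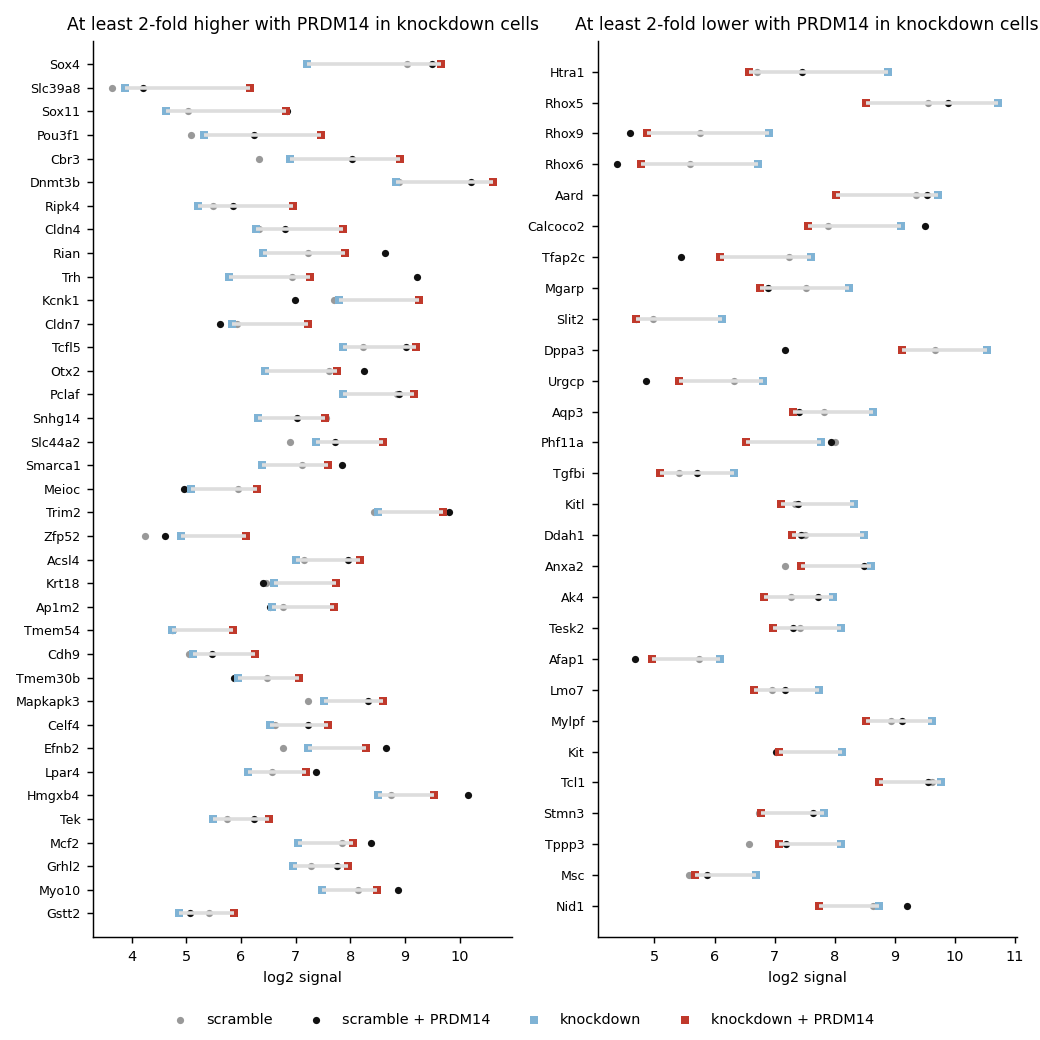
Log2 signal on each of the 4 arrays (horizontal axis; circles for scramble, squares for knockdown) for the 37 higher and the 28 lower genes, ordered by their difference in knockdown cells, which the grey bar spans. For Cldn4, Cldn7 and Krt18 the red square stands apart from the other 3 symbols, while for Sox4 and Htra1 the blue square does.

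Among the lower genes the Rhox homeobox genes, an X-linked cluster expressed in germ cells and placenta, lay together. Rhox5 read 9.56, 9.88, 10.71 and 8.52, and its difference of −2.19 spanned the whole range of the 4 arrays. Rhox6 read 5.59, 4.37, 6.72 and 4.77, and Rhox9 read 5.75, 4.59, 6.91 and 4.87, with differences of −1.95 and −2.05. In all 3 the knockdown array without PRDM14 was the highest of the 4. In scramble cells Rhox6 and Rhox9 differed by −1.22 and −1.16 and Rhox5 by 0.32. With values raised to the filter Rhox6 and Rhox9 were at −1.32 and −1.52. Rhox13, the other measured member of the cluster, was at −0.67. Rhox genes are copies of one another, so the signal of a probe set may include a related transcript, although none of these probe sets carries the array's suffix for shared probes.

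Dppa3, which protects methylation in the early embryo and marks germ cell precursors, read 9.68, 7.17, 10.53 and 9.12. It was lower with PRDM14 in both backgrounds, by −2.51 in scramble and −1.41 in knockdown cells. Tfap2c, a factor of germ cell specification and of trophoblast, read 7.23, 5.44, 7.61 and 6.10, with differences of −1.79 and −1.51, and −1.07 on its second probe set in knockdown cells. The receptor gene Kit read 8.10, 7.02, 8.12 and 7.07, and its differences of −1.08 and −1.05 were nearly the same. Kitl, which encodes the ligand of that receptor, read 7.34, 7.40, 8.32 and 7.10, so it differed by −1.22 in knockdown cells and by 0.05 in scramble cells, with −0.41 and −0.21 on its other probe sets above the filter. Tcl1, an AKT co-activator of naive cells, read 9.61, 9.56, 9.77 and 8.73, with the array labelled with PRDM14 in knockdown cells apart from the rest. Of 11 genes of the primordial germ cell list 3 were called lower, beside 0.272% of all genes, none was called higher, and the median was −0.09. Of the 11, 7 were below 0 and 4 above it, the latter led by Ifitm1 (0.87) and Lin28a (0.82).

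Meioc, a meiotic gene, was the 1 call in the list of germline genes with promoters methylated in somatic cells. It read 5.95, 4.97, 5.08 and 6.29, a difference of 1.21 in knockdown cells (0.89 with raised values) against −0.99 in scramble cells. Of 31 measured genes with promoters methylated in somatic cells 7 (22.6%) were above 0 in knockdown cells, beside 48.0%, and the median was −0.06. Of the 13 above the filter 4 were above 0 and the median was −0.04. The list was shifted further in scramble cells, with 5 of the 31 above 0 (16.1%, beside 50.9%) and a median of −0.37. Of the 18 above the filter there 5 were called lower, beside 1.0% of all genes, and the median of the 18 was −0.76. Dazl was at −0.64 in knockdown cells and at −1.26 in scramble cells. Sycp3, of the synaptonemal complex, was at 0.93 in knockdown cells and at −2.92 in scramble cells, reading 8.42, 5.50, 6.43 and 7.36.

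Of the other lower genes, Htra1, a secreted serine protease, read 6.71, 7.45, 8.88 and 6.58. The knockdown array stood above the other 3, and the difference was −2.30, or 4.94-fold. Slit2, a secreted guidance ligand, read 4.98, 4.69, 6.12 and 4.69, above the filter on the knockdown array alone, and its difference of −1.43 became −0.72 with values raised to the filter. Tgfbi, a matrix protein induced by TGF-beta, differed by −1.24 (−0.93 raised), and Nid1, a basement membrane linker, by −1.01. The membrane-binding protein gene Anxa2 was at −1.17. The actin- and microtubule-linked genes Afap1 (−1.13, and −0.69 raised), Lmo7 (−1.09), Mylpf (−1.09), Tesk2 (−1.13), Stmn3 (−1.04) and Tppp3 (−1.02) followed.

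The remaining lower genes were metabolic or of varied function. Mgarp, a mitochondrial protein gene induced by hypoxia, read 7.52, 6.90, 8.24 and 6.75 (−1.49), and it was the 1 call among the 22 genes of the glycolysis and hypoxia list above the filter, whose median was 0.04. Aqp3, a water and glycerol channel, was at −1.33, with other probe sets at −1.67 and −0.59. Ddah1, which degrades methylarginines, was at −1.20 with 2 further probe sets above the filter at −1.05 and −0.88. Ak4, a mitochondrial adenylate kinase, was at −1.14, with 3 other probe sets above the filter at −1.12, −0.05 and 0.01. Aard, at 9.36, 9.54, 9.72 and 8.02, was low on the knockdown array labelled with PRDM14 alone (−1.70), and so was Phf11a, a PHD finger gene, at 8.01, 7.93, 7.77 and 6.52 (−1.25). Calcoco2, an autophagy receptor (−1.56), Msc, a basic helix-loop-helix repressor (−1.01), and Urgcp (−1.39) were the others. Urgcp rested on 1 probe set of a shared-probe type, and its other 3 probe sets were below the filter. The calls of Ripk4, Tcfl5, Slc44a2, Trim2, Ak4, Tgfbi and Stmn3 were also read from probe sets of such a type. Without them 33 of the 37 higher and 26 of the 28 lower genes were still called.

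The medians of the pluripotency lists lay on different sides of 0. In the naive list, 5 of 22 measured genes (22.7%) were above 0, beside 48.0% of all measured genes, and the median was −0.17, and of 19 above the filter 1, Tcl1, was called lower, none was called higher, and the median was −0.15. The transcription factors Klf4 (6.98 to 6.36, −0.61), Esrrb (−0.49), Tfcp2l1 (−0.47) and Nanog (9.95 to 9.56, −0.39) were below 0, while Manba was at 0.58 and Nr5a2 at 0.26. In scramble cells 15 of the 22 were above 0 (68.2%), and Klf4 and Nanog differed by 0.44 and 0.52. In the general list, 9 of 11 genes, all above the filter, were above 0, beside 49.5%, with no call and a median of 0.23, Lin28a leading at 0.82 and Pou5f1 at −0.01. Its members Epcam (0.78) and Cdh1 (0.72) are also on the epithelial list, as is Grhl2 of the primed list, so these lists are not separate observations. In the primed epiblast list, 16 of 21 measured genes (76.2%) were above 0, beside 48.0%, and the median was 0.26. Of the 17 above the filter 3 were called higher, Pou3f1, Otx2 and Grhl2, beside 0.359% of all genes, and the median was 0.52, but 4 of the 17 passed the filter on the array labelled with PRDM14 alone. Igfbp2 (0.71), Foxd3 (0.65), Sall2 (0.64) and Zic2 (0.63) followed, and Tcf15 was lowest at −0.43. The primed list was shifted in scramble cells too, with 14 of the 21 above 0 (66.7%, beside 50.9%) and a median of 0.37. Of the 14 above the filter there 5 were called higher, and their list median was 0.60. Igfbp2 and Foxd3 differed by 1.02 and 1.41 in scramble cells. Cdh2, which differed by 2.73 in scramble cells, was at 0.26 in knockdown cells.

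**Figure D4:**
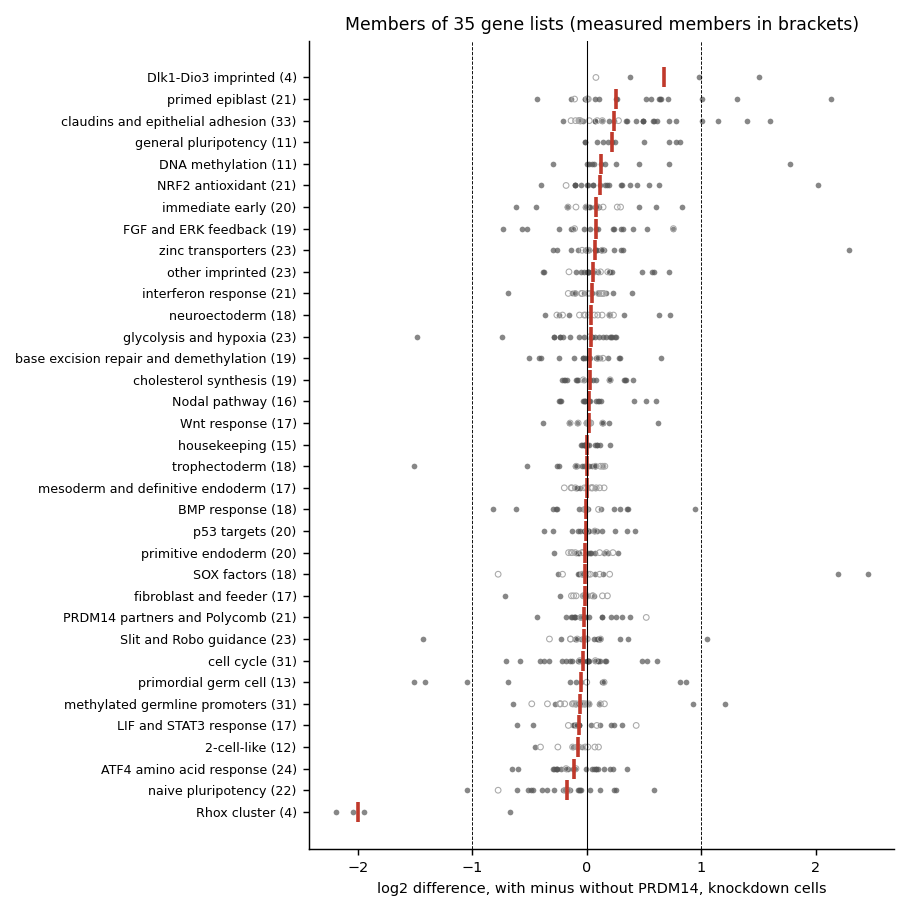
Log2 difference with minus without PRDM14 in knockdown cells (horizontal axis) for each measured member of 35 gene lists (filled points above the filter, open points below it), with the median of all measured members as a red bar and dashed lines at 2-fold. The Rhox bar lies lowest, near −2 and the naive bar at −0.17, the Dlk1-Dio3 bar is highest at 0.68, and the primed, epithelial and general pluripotency bars lie at 0.26, 0.24 and 0.23.

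Of the 35 lists 21 had no called member, with medians between −0.12 and 0.23 over the genes above the filter. With 0.63% of all genes called, most lists of such sizes would hold no call. The absence of a call therefore does not show that a list was unchanged. They include the base excision repair, Polycomb, FGF and ERK, immediate early, Nodal, BMP, Wnt, LIF and STAT3, 2-cell-like, neuroectoderm, mesoderm and definitive endoderm, fibroblast, primitive endoderm, p53, ATF4, cholesterol, interferon, cell cycle, general pluripotency, other imprinted and housekeeping lists. In the trophectoderm list Tfap2c was the 1 call among 13 genes and the median was −0.04, and the Slit and Robo list held Slit2 and Efnb2 among 15 with a median of 0.07. The 15 housekeeping genes lay between −0.05 and 0.20.

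The called genes were then set beside the same comparison in scramble cells, which shares no array with this one. There, 113 (1.09%) of 10366 genes were higher and 104 (1.0%) lower, 217 (2.09%) in all. Of the 37 genes higher in knockdown cells 28 were above 0 in scramble cells, beside 50.4% of all genes there, with a median of 0.56. Called higher there as well were 10: Sox11, Pou3f1, Cbr3, Dnmt3b, Rian, Trh, Trim2, Mapkapk3, Efnb2 and Hmgxb4. They are 27% of the knockdown list, beside 1.09% of all genes called higher in scramble cells. Of the scramble list they are 8.85%, beside 0.359% of all genes called higher in knockdown cells. The same genes make up 0.0984% of the 10158 genes above the filter in both comparisons. Of the 28 lower genes 14 were below 0 in scramble cells, about the share of all genes there (49.5%), with a median of 0.0002. Called lower there were 7: Rhox6, Rhox9, Tfap2c, Dppa3, Urgcp, Afap1 and Kit. They are 25% of the knockdown list, beside 1.0% of all genes called lower in scramble cells. Of the scramble list they are 6.73%, beside 0.272% of all genes called lower in knockdown cells. The same genes make up 0.0689% of the 10158. Calcoco2 and Anxa2 were called in opposite directions. Across the 10158 genes the 2 differences had a Pearson correlation of 0.23, as a description over genes that are not independent and that share the platform and its normalization. Whether any gene differed between the backgrounds was not tested, since 1 array a condition leaves no error term for it.

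**Figure D5:**
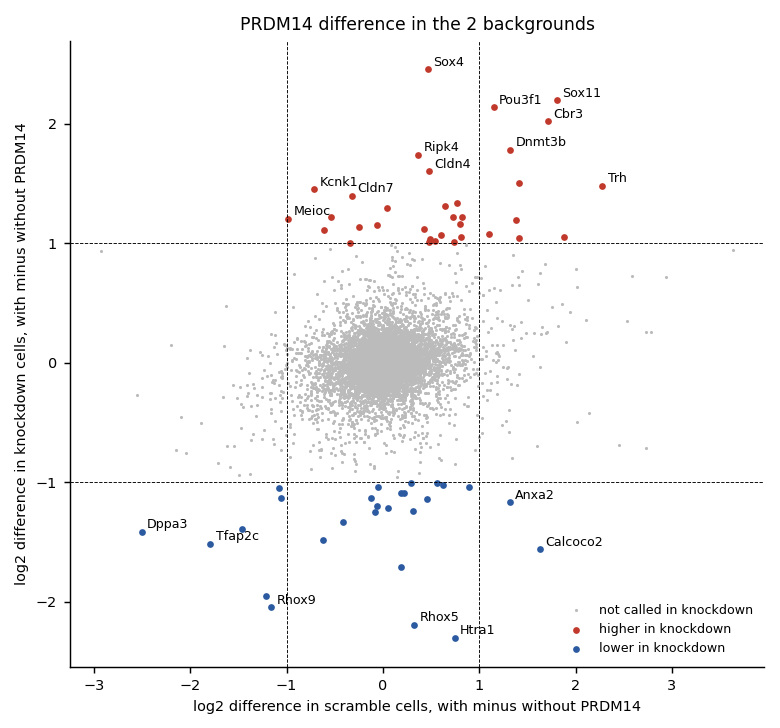
Log2 difference with minus without PRDM14 in knockdown cells (vertical axis) against that in scramble cells (horizontal axis) for 10158 genes, with dashed lines at 2-fold. Sox11, Pou3f1, Cbr3, Dnmt3b and Trh lie in the upper right, Dppa3, Tfap2c and Rhox9 in the lower left, and Calcoco2 and Anxa2 in the lower right corner.

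Which array stood apart differed between the groups of genes. Of the 37 higher genes 25 had their highest value on the knockdown array labelled with PRDM14, and 21 had their lowest on the knockdown array, both being the case in 11. Of the 28 lower genes 25 had their highest value on the knockdown array and 17 their lowest on the array labelled with PRDM14, with both in 14. Selecting genes by the difference of these arrays favours such extremes. For Sox4, Htra1 and Slit2 the baseline array was the one apart from the other 3, and for Cldn4, Cldn7, Krt18, Aard and Phf11a the array labelled with PRDM14 was.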

How the data were processed

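Total RNA of 4 conditions, 1 sample each, was measured on 1-colour Affymetrix mouse arrays. The authors deposited 1 log2 signal per probe set and array, made with Affymetrix Expression Console per the submitters' processing notes; the version, background correction and normalization are not stated there, and the log2 base was inferred from the value range of 2.78 to 13.2. The array medians lay between 5.09 and 5.11, so a shift shared by all genes would not be seen. Arrays hold no read depth, and their number limits the precision.

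Of 45141 probe sets the platform annotation names 28898 with 1 gene, 551 with several and 15588 with none, and 28689 of the named ones matched RefSeq. Each gene was represented by its brightest probe set, by mean signal across the series. A gene was tested where at least 1 of the 2 arrays compared reached 5.40, and called where the difference was at least 2-fold. The average difference was fitted with limma 3.58.1 (R 4.3.3), with Benjamini-Hochberg adjustment, and the steps were tested on simulated data. Named are all called genes, the targeted genes, the DNA methylation list, up to 4 members of each list by size of difference, the genes nearest the 2-fold line and the cell markers; further list members (such as Cgn, Ocln, Dsp and Pkp2), further probe sets of a gene and the epithelial grouping of Ripk4, Ap1m2, Tmem30b and Tmem54 were chosen after their values were seen. The members and lists were chosen with earlier results of these data known. Alternatives were other folds, filters, probe set rules and scalings. Tet1 is not reported here.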

Additional observations from a re-analysis of the deposited data

Results flagged for a closer look

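Calcoco2 and Anxa2 were at least 2-fold different with PRDM14 in both backgrounds and in opposite directions. Calcoco2, an autophagy receptor, read 7.88 and 9.51 in scramble cells without and with PRDM14, a difference of 1.63, and 9.11 and 7.55 in knockdown cells, a difference of −1.56. Anxa2, a membrane-binding annexin, read 7.18 and 8.49 in scramble cells (1.31) and 8.61 and 7.44 in knockdown cells (−1.17). Each gene has 1 probe set, each value comes from 1 array, and the difference between the backgrounds was not tested.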

How the results depend on the processing

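With 1 array a side no replicate could be left out, and the calls are sizes. The 37 higher and 28 lower genes became 151 and 139 at 1.5-fold and 8 and 5 at 3-fold, and 23 were higher after averaging the probe sets of each gene, all of them among the 37. Genes higher in both backgrounds numbered 50 at 1.5-fold and 4 with the mean of probe sets, and genes lower in both 36 at 1.5-fold and 3 with values raised to the filter. The primed epiblast median was 0.26 with no filter, 0.26 with raised values and 0.26 without Pou3f1 and Otx2, the last chosen after seeing the data. The Rhox median was −1.42 with raised values, the epithelial median 0.24 with no filter, and the Dlk1-Dio3 median 0.68 with no filter and 0.59 with the mean of probe sets. Urgcp was at 0.0736 without probe sets of shared probes. That value came from a probe set at 4.97 without and 5.05 with PRDM14, below the filter on both arrays. It therefore gives no second reading of the gene. Quantile normalization, loess correction and median centring moved none of 221 named genes by more than the probe-set SD, but the loess correction took 2 called genes just under 2-fold, Myo10 and Msc. The average fit called 0 genes under each alternative run. No paired analysis was possible because each condition has 1 array and so no replicates to pair; the average fit compares with and without PRDM14 within each background.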

Other observations

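No gene of the BMP response or cell cycle list was called, beside 0.63% of all genes, and the differences of their members lay on both sides of 0. Id1, which blocks DNA binding of its helix-loop-helix partners, read 8.85 without and 9.79 with PRDM14 in knockdown cells (0.94), while its relative Id3 read 8.69 and 8.07 (−0.62) and the inhibitory Smad6 6.16 and 5.35 (−0.82). The 14 genes of the BMP list above the filter had a median of −0.01. Of the cyclins, Ccne2 (0.61) and Ccnd1 (0.53) lay above 0 and Ccnd3 (−0.71) and Ccnd2 (−0.58) below it, and the median of the 29 cell cycle genes was −0.03.

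Probe sets named with no gene or with several were left out of the comparison. Of these, 5323 passed the filter. With PRDM14 in knockdown cells 13 were higher and 8 lower by 2-fold or more (0.395%), with differences from −1.96 to 1.66.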
